A study of Mus musculus with 12 samples.

Results

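The genes described here store iron or handle it at the cell membrane, or bind zinc and copper in the cytoplasm. They are 9 genes of the 47632 in the RNA-seq tables of colonic epithelial cells, and were chosen by name: Fth1 and Ftl1 (the heavy and light chains of ferritin), Tfrc (the transferrin receptor), Cybrd1 (a ferric reductase of the brush border), Heph (hephaestin, a ferroxidase of iron export), Ireb2 (an iron sensor that binds mRNA), Hmox1 (the inducible haem oxygenase) and Mt1 and Mt2 (metallothioneins). Cells were isolated with EDTA from the colons of C57/BL6 mice. Controls (Tfeb flox/flox) and animals without epithelial Tfeb (Tfeb ΔIEC) were each sampled on Day 0, Day 4 and Day 11, which gave 6 groups of 2 animals and 12 animals in all. Every animal carried the floxed Tfeb alleles, and the Tfeb ΔIEC animals also carried Cre under the villin promoter, which is active in the intestinal epithelium. Day 0 animals were untreated by the study's text, although their labels carry the same DSS entry as all others. They were 10 and 12 weeks old, those of Day 4 were 12 weeks old and those of Day 11 were 10 weeks old. Animals of the later days had received dextran sodium sulfate (DSS), which injures the epithelium, at 2.5% by the labels (the study's methods give a slightly lower concentration), and those of Day 11 had then been given water for a recovery period.

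Ferritin is a hollow protein shell in which heavy and light chains assemble and iron is stored as a mineral. Iron regulatory proteins, of which the product of Ireb2 is one, bind hairpins called iron responsive elements when iron is scarce. Bound near the start of an mRNA, as in ferritin, they block its translation, and bound in the tail of the Tfrc mRNA they protect it from decay. Metallothioneins are small proteins rich in cysteine, and the transcription factor MTF1 switches on their genes when zinc or cadmium rises, through short metal response elements. Ferritin and metallothionein are both made in the gut epithelium, which meets metals from the diet.

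The hairpins are printed because they are the sequences through which iron regulatory proteins act on the ferritin and Tfrc mRNAs. A search of GENCODE transcripts on GRCm38 (mm10) for an unpaired C, 5 paired bases and the 6-base loop CAGTGN found them in 3 of the 9 genes. Fth1 had 1 in its 5′ UTR at chr19:9982732-9982760 on the plus strand, and Ftl1 had 1 in its 5′ UTR, in exon 1, at chr7:45459779-45459807 on the minus strand. Tfrc had 4 in the last exon, exon 19, in its 3′ UTR on the plus strand of chromosome 16. They are given 5′ to 3′ with the loop in capitals, the Tfrc elements by their order in the mRNA.
Fth1: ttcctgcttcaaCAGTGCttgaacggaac
Ftl1: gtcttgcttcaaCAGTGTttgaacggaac
Tfrc, chr16:32631219-32631247: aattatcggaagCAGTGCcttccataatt
Tfrc, chr16:32631598-32631626: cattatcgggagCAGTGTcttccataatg
Tfrc, chr16:32631663-32631691: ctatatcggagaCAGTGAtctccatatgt
Tfrc, chr16:32631710-32631738: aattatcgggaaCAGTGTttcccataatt
The same pattern was found in a 5′ UTR of 28 of 21899 protein-coding genes (0.128%) and in a 3′ UTR of 127 (0.58%). The 28 included Slc40a1, the iron exporter ferroportin, and Ftl1-ps1, a copy of Ftl1. Such a match is a description of the letters and not of binding.

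The metallothionein promoters are printed because these are the neighbouring genes whose levels were the most different between days in control animals. Mt1 and Mt2 lie side by side on the plus strand of chromosome 8, at chr8:94179089-94180325 and chr8:94172618-94173567. The 250 bases before each start, from RefSeq on GRCm38.p6, are given with the core of the metal response element, TGCNCNC, in capitals on either strand.
Mt1, chr8:94178839-94179088: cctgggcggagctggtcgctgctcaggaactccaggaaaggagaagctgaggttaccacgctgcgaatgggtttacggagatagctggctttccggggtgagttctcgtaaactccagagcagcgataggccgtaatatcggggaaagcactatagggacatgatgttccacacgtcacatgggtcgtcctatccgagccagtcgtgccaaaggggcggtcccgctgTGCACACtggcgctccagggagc
Mt2, chr8:94172368-94172617: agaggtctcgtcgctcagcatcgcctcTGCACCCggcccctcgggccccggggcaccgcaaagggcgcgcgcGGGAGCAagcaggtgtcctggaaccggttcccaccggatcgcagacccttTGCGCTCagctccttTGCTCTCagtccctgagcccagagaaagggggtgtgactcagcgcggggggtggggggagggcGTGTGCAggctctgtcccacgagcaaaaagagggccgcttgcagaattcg
The Mt2 sequence held 5 cores and the Mt1 sequence held 1. In windows of 300 bases, which add 50 bases after the start, the counts were 6 for Mt2 and 3 for Mt1. The cores gained by Mt1 lay at +2 and +20, just after the annotated start that was used. Sequence farther downstream and other starts of Mt1 were not searched. The counts therefore depend on the start chosen and do not rank the 2 promoters. Among 32851 such windows of all genes, 51% held at least 1 core, 7.1% held 3 or more and 0.225% held 6 or more. In all, 7 of the 9 genes had a window. Tfrc had 3 cores in one window, of which a pair overlapped, and 1 in another, and the windows of Fth1, Ftl1, Cybrd1 and Ireb2 had 0. The window of Mt2 also held 1 core of the antioxidant response element, TGACNNNGC (12.4% of all windows). CACGTG, a box bound by TFEB and its relatives, was found in 0 of the windows of these 7 genes and in 7.15% of all windows.

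Each deposited value is the FPKM (a count of sequenced fragments divided by transcript length in kilobases and by library size) that the authors' software made from both animals of a group. With 1 value per genotype and day there is no replicate check, and no SD, interval or p-value is given. The number of reads behind a value is unknown. Differences are log2 differences of FPKM + 1 (Tfeb ΔIEC against Tfeb flox/flox), which understate the change of low genes, and fold values are plain ratios of FPKM. A gene passed the filter with at least 1 FPKM in either genotype of the day, and was called lower or higher where the log2 difference reached 1, which is 2-fold. Tfeb itself was listed at 0.901 FPKM in controls and 0.185 in Tfeb ΔIEC animals for Day 0, at 1.08 and 0 for Day 4 and at 1.18 and 0 for Day 11, lower in the animals labelled as deleted. The tables of Days 4 and 11 were close to each other: 98.2% of the 7379 genes that reached 1 FPKM in controls of both days were within 1.5-fold, against 39.7% of 6366 genes for Days 0 and 4. In Tfeb ΔIEC animals the shares were 98.4% of 7766 and 57.7% of 7002. Identical FPKM values on Days 4 and 11 were listed for 1679 of 11746 genes above 0 in controls and for 1310 of 12826 in Tfeb ΔIEC animals, and for 0 between Days 0 and 4. Day 11 is therefore given beside Day 4 and not counted as a separate observation of it. Epithelial markers were high: all 8 passed the filter, with Krt19 between 3018 and 5591 FPKM, and Car1, a carbonic anhydrase of colonocytes, was at 22335 FPKM or more in all 6 values. Immune markers summed to between 1.04 and 4.001 FPKM over 9 genes. The macrophage genes Cd68 and Adgre1 were listed at 0, from which nothing is read. On Day 0, 0 immune markers passed the filter. On Days 4 and 11, 2 passed, of which 1 was called higher, beside 25.6% and 26.1% of all genes tested. Stromal and endothelial markers summed to between 0.598 and 2.44 FPKM over 5 genes.

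The ferritin and metallothionein genes had lower values in Tfeb ΔIEC animals than in controls on all 3 days, and Heph had higher values. Of the 9 genes, 7 passed the filter on Day 0, of which 3 were called lower (Ftl1, Mt1 and Mt2) and 2 higher (Tfrc and Heph), against 16.1% and 13.5% of the 9993 genes tested. On Day 4, 6 genes passed, of which 4 were called lower (Fth1, Ftl1, Mt1 and Mt2) and 1 higher (Heph), against 26.1% and 25.6% of 9371 genes. The Day 11 calls were the same 4 and 1, against 25.7% and 26.1% of 9365 genes. The median log2 difference of the genes past the filter was -0.96, -1.49 and -1.43 on Days 0, 4 and 11, beside 0.06, 0.06 and 0.08 over all genes tested. The members were not drawn at random, so these counts describe them and no more. In tissue isolates of this kind, fewer cells of a type and less RNA per cell cannot be told apart.

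**Figure D1:**
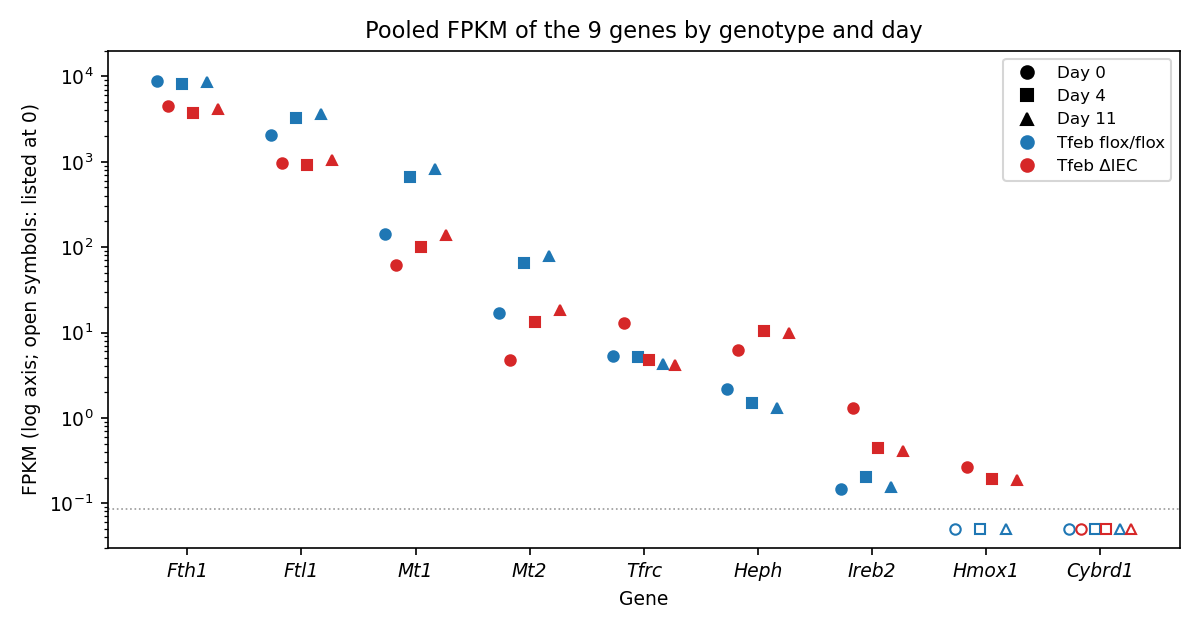
FPKM of the 9 genes on a log axis, 1 point for each pooled value of 2 animals, by genotype (colour) and day (symbol), with open symbols at the bottom for genes listed at 0. The ferritin and metallothionein points of Tfeb ΔIEC animals lie below those of the controls on every day, and the Heph points lie above them.

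Fth1 and Ftl1 were the most abundant of the 9 genes in all 6 values, and both were lower in Tfeb ΔIEC animals. Fth1 (chr19:9982703-9985092) was at 8843 FPKM in controls and 4551 in Tfeb ΔIEC animals for Day 0, at 8197 and 3711 for Day 4 and at 8581 and 4103 for Day 11. As deposited, all 3 values of Tfeb ΔIEC animals were under all 3 of the controls, and within each genotype the days lay close together. With each group divided by its summed FPKM, the log2 ratio of Day 4 to Day 0 for Fth1 was -0.70 in controls (-0.11 as deposited) and -0.05 in Tfeb ΔIEC animals (-0.29 as deposited), so the closeness of the days in controls depends on the scaling. Ranked by FPKM, Fth1 held a place between 17 and 32 among all genes of its group. The Fth1 value was 1.94-fold lower in untreated Tfeb ΔIEC animals (log2 difference -0.96, just short of the 2-fold threshold and so not called), 2.21-fold lower on Day 4 (-1.14) and 2.09-fold lower on Day 11 (-1.06). Centred on the median of all genes, the Fth1 difference on Day 0 was -1.02 and past the threshold, and with each group divided by its sum it was -0.31 on Day 4 and -0.23 on Day 11, which ends both calls.

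Ftl1 (chr7:45457945-45459886) showed the larger difference of the pair during and after DSS. It was at 2058 FPKM in controls and 964 in Tfeb ΔIEC animals for Day 0, at 3279.7 and 914 for Day 4 and at 3638 and 1053 for Day 11. In control animals the Day 4 value was 1.59 times the Day 0 value, whereas in Tfeb ΔIEC animals it was 0.948 times. With each group divided by its summed FPKM, the log2 ratio of those days for Ftl1 was 0.09 in controls (0.67 as deposited) and 0.17 in Tfeb ΔIEC animals (-0.08 as deposited), so which genotype had the higher ratio depends on the scaling. The fold lower was 2.13 on Day 0 (log2 difference -1.09), 3.59 on Day 4 (-1.84) and 3.45 on Day 11 (-1.79). With each group divided by its sum, the log2 difference was -1.01 on Day 4 and -0.95 on Day 11, which ends the Day 11 call. Whether the difference was larger on Day 4 than on Day 0 was not tested, since each is 1 value.

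The ratio of the 2 chains also had different values in the genotypes. In control animals there were 4.30 FPKM of Fth1 for each of Ftl1 on Day 0, 2.50 on Day 4 and 2.36 on Day 11. The ratio in Tfeb ΔIEC animals was 4.72, 4.06 and 3.90. A ratio within 1 group does not depend on how the groups were scaled to each other. The 2 chains do differ in transcript length, at 929 nt for Fth1 and 735.5 nt for Ftl1. On Day 4, genes near the length of Fth1 had a median log2 difference of -0.66, and those near the length of Ftl1 -1.29. Fth1 and Ftl1 lay 0.48 and 0.55 under these medians. The part of transcript length in the ratio was not tested. The summed ferritin FPKM was 10901, 11477 and 12219.6 in controls and 5515, 4625 and 5156 in Tfeb ΔIEC animals on Days 0, 4 and 11. Ferritin thus made up 1.12%, 0.784% and 0.829% of all FPKM in controls, and 0.566%, 0.564% and 0.623% in Tfeb ΔIEC animals.

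Reads of ferritin can be shared with near-identical copies elsewhere in the genome, so part of each ferritin value is uncertain. A search for transcripts with at least 90% identity over at least 50% of the member's transcript found 1 copy of Fth1 and 7 of Ftl1, and none for the other 7 genes. The Fth1 copy, the processed pseudogene Gm6977, had 90.5% identity over 56.4% of the transcript. Its FPKM was 586 and 319 on Day 0, 538 and 273 on Day 4, and 562 and 285 on Day 11 (Tfeb flox/flox first), lower in Tfeb ΔIEC animals like that of Fth1. The nearest Ftl1 copy, Gm10116 (Ftl1-ps1 in GENCODE), had 99.6% identity over 94% of the transcript, and was at 121 and 52.4 FPKM on Day 0, 159 and 57.3 on Day 4, and 180 and 65.8 on Day 11. The other Ftl1 copies, Gm20746, Gm5278, Gm12164, Gm15590, Ftl2-ps and Gm7541, were between 0 and 6.80 FPKM. The copies made up between 6.15% and 6.85% of the summed FPKM for Fth1, and between 5% and 6.37% for Ftl1, so adding them leaves the direction as it was.

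Mt1 and Mt2, whose promoters are printed above, had the largest differences between genotypes on Day 4 among the lower members. Mt1 was at 143 FPKM in controls and 62.5 in Tfeb ΔIEC animals for Day 0, at 669 and 101 for Day 4 and at 824 and 139 for Day 11. The controls of Days 4 and 11 stand far above the other 4 values, of which the highest is the Day 0 control. Mt1 was 2.29-fold lower on Day 0 (log2 difference -1.18), 6.62-fold lower on Day 4 (-2.72) and 5.93-fold lower on Day 11 (-2.56). Its Day 4 difference lay at percentile 4.51 of all genes tested.

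Mt2 was also lower in Tfeb ΔIEC animals, at a lower level than Mt1. It was at 16.8 FPKM in controls and 4.79 in Tfeb ΔIEC animals for Day 0, at 65.7 and 13.2 for Day 4 and at 79.5 and 18.5 for Day 11. It was 3.51-fold lower on Day 0 (log2 difference -1.62), 4.97-fold lower on Day 4 (-2.23) and 4.30-fold lower on Day 11 (-2.05). As for Mt1, the controls of Days 4 and 11 stand above the other 4 values, of which the highest is here the Tfeb ΔIEC value of Day 11. On Day 0 the larger difference was that of Mt2, and on Days 4 and 11 that of Mt1. There were 8.52 FPKM of Mt1 for each of Mt2 in controls on Day 0, 10.2 on Day 4 and 10.4 on Day 11, and 13.1, 7.65 and 7.52 in Tfeb ΔIEC animals.

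Between Day 0 and Day 4 the metallothionein values differed most among the 9 genes in control animals. The tables of the days were normalized separately, so levels across days are set side by side as a description. In controls Mt1 was 4.67-fold and Mt2 3.91-fold higher on Day 4 than on Day 0. In Tfeb ΔIEC animals the same ratios were 1.61 and 2.76. With each group divided by its summed FPKM, the log2 ratio of Day 4 to Day 0 was 1.63 in controls and 0.93 in Tfeb ΔIEC animals for Mt1, but 1.33 and 1.53 for Mt2, so for Mt2 the order of the genotypes turned. The summed metallothionein FPKM was 159.9, 735 and 904 in controls and 67.3, 114 and 157 in Tfeb ΔIEC animals. Set against ferritin, the controls had 68.2, 15.6 and 13.5 FPKM of ferritin for each of metallothionein on Days 0, 4 and 11, and the Tfeb ΔIEC animals 81.9, 40.5 and 32.8.

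**Figure D2:**
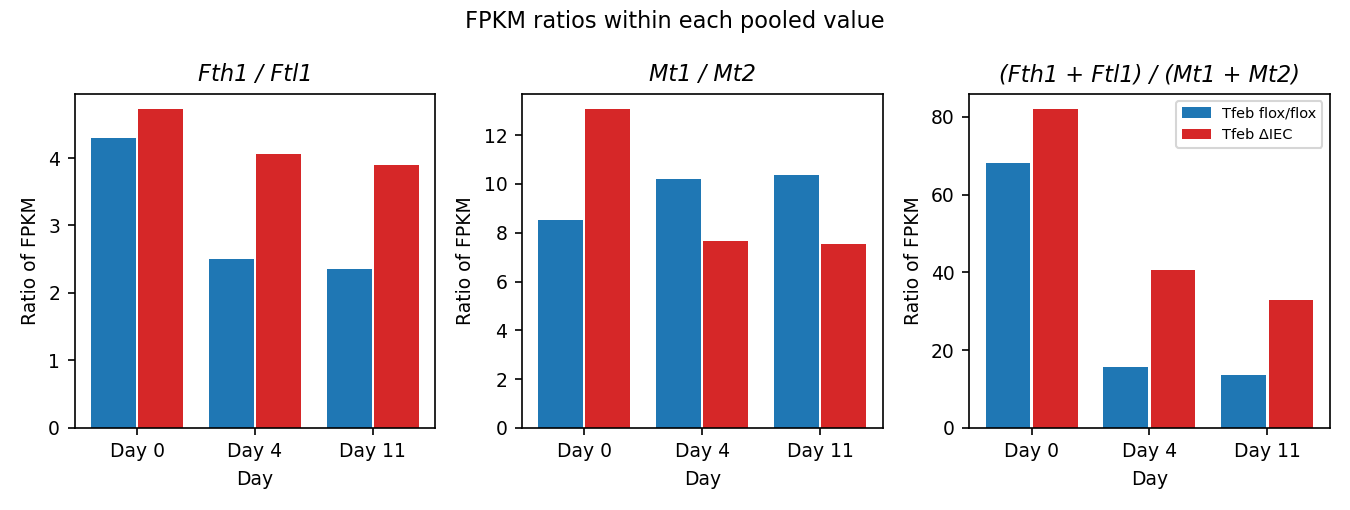
Ratios of FPKM within each pooled value for the ferritin chains, the metallothioneins and ferritin against metallothionein (bars from 0, 1 bar per genotype and day, no error since each is 1 value). The Fth1 to Ftl1 ratio is at or under 2.50 in controls on Days 4 and 11 and at or above 3.90 in the other 4 bars.

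Tfrc, which brings transferrin-bound iron into the cell, had its largest genotype difference in the untreated animals. Tfrc (chr16:32608920-32632794) was at 5.30 FPKM in controls and 13.0 in Tfeb ΔIEC animals for Day 0, at 5.23 and 4.72 for Day 4 and at 4.28 and 4.14 for Day 11. The Day 0 value of Tfeb ΔIEC animals stands apart from the other 5. It was 2.45-fold higher (log2 difference 1.15) and was called, whereas the log2 differences of -0.12 on Day 4 and -0.04 on Day 11 were not. With each group divided by its summed FPKM, those later differences were 0.56 and 0.62, so the direction on Days 4 and 11 depends on the scaling. In Tfeb ΔIEC animals Tfrc was 2.75-fold lower on Day 4 than on Day 0, and in controls 0.986 times the Day 0 value.

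Heph was the member called higher on every day. Heph (chrX:96306178-96574485) was at 2.19 FPKM in controls and 6.16 in Tfeb ΔIEC animals for Day 0, at 1.51 and 10.5 for Day 4 and at 1.31 and 9.76 for Day 11. All 3 values of Tfeb ΔIEC animals were above all 3 of the controls. The fold higher was 2.82 on Day 0 (log2 difference 1.17), 6.99 on Day 4 (2.20) and 7.46 on Day 11 (2.22). With a pseudocount of 5 in place of 1, the Day 0 differences of Heph and Tfrc were 0.64 and 0.80, short of the threshold. The Day 4 difference lay at percentile 94.3 of all genes tested. Between Day 0 and Day 4 the control value was 0.69 times as high and the Tfeb ΔIEC value 1.71 times as high.

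Ireb2, Hmox1 and Cybrd1 were at or near the lower end of the tables. Ireb2 (chr9:54863755-54912534) was at 0.146 FPKM in controls and 1.29 in Tfeb ΔIEC animals for Day 0, at 0.201 and 0.445 for Day 4 and at 0.157 and 0.412 for Day 11. It passed the filter on Day 0 only, through the Tfeb ΔIEC value, with a log2 difference of 0.997 that stayed just under the threshold. With a pseudocount of 0.1 in place of 1 the Ireb2 difference on Day 0 was 2.49. Hmox1 (chr8:75093591-75100596) was listed at 0 in controls on all 3 days and at 0.268, 0.192 and 0.187 FPKM in Tfeb ΔIEC animals, under the filter throughout. Cybrd1 (chr2:71117923-71142926) was listed at 0 in all 6 values. Since the depth is unknown, nothing is read from a listed 0.

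**Figure D3:**
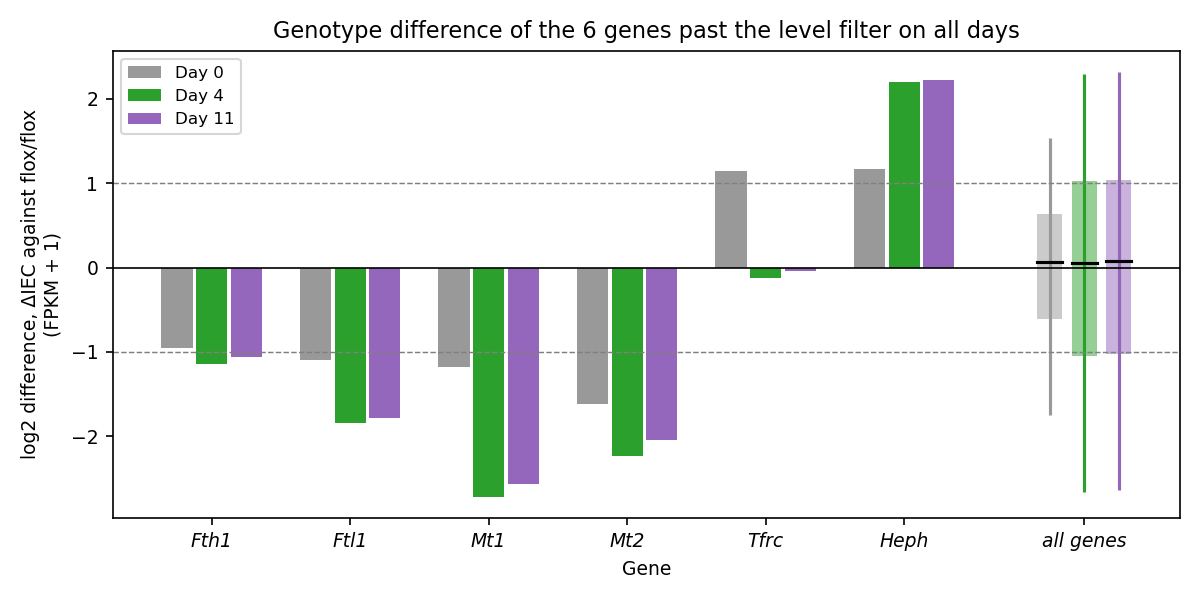
Log2 difference of FPKM + 1 (Tfeb ΔIEC against Tfeb flox/flox) for the 6 genes past the filter on all 3 days, with dashed lines at 2-fold. At the right, boxes give the quartiles and median of all genes tested and lines their 5th to 95th percentiles. Fth1, Ftl1, Mt1 and Mt2 lie under 0 on all days, Heph above 0 on all days, and Tfrc above 2-fold on Day 0 and near 0 on the later days.

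Ordered by FPKM, the controls of each day ran Fth1, Ftl1, Mt1, Mt2, Tfrc, Heph, Ireb2, with Hmox1 and Cybrd1 at 0. In Tfeb ΔIEC animals Tfrc and Heph stood above Mt2 on Day 0, and Heph stood above Tfrc on Days 4 and 11. Without replicates it cannot be said which neighbours in this order differ. The 15 pairs of values above 0 on Days 4 and 11 were at most 1.40-fold apart between those days. That largest gap was Mt2 in Tfeb ΔIEC animals.

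The direction of the members moved with transcript length, as it did for all genes. The lower members were short, with a median transcript of 449.5 nt for Mt2, 633 nt for Mt1, 735.5 nt for Ftl1 and 929 nt for Fth1. Heph, higher on all days, was long at 4611 nt, as was Tfrc at 3375 nt, which was higher on Day 0 only. Over 10 length bins of all genes tested on Day 4, the median log2 difference was -1.89 at 38 to 485 nt and 0.65 at 2827 to 3482 nt. On Day 0 the shortest bin was at -1.11 and the bin of 3604 to 4665 nt at 0.41. Beside genes of their own length on Day 4, Mt1 was 1.42 under the bin's median of -1.29, with 9.95% of the bin below it. Ftl1, in the same bin, had 31.4% below it, Fth1 had 32% below it in a bin with a median of -0.66, and Mt2 had 39.2% below it in a bin with a median of -1.89. Heph lay 1.83 above its bin's median of 0.37, with 96.8% of the bin below it. Tfrc had 88.7% of its bin below it on Day 0 and 25.6% on Day 4. Its differences of -0.12 on Day 4 and -0.04 on Day 11 stood beside bin medians of 0.65 and 0.70. The part of transcript length in the ferritin and metallothionein differences was not tested.

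**Figure D4:**
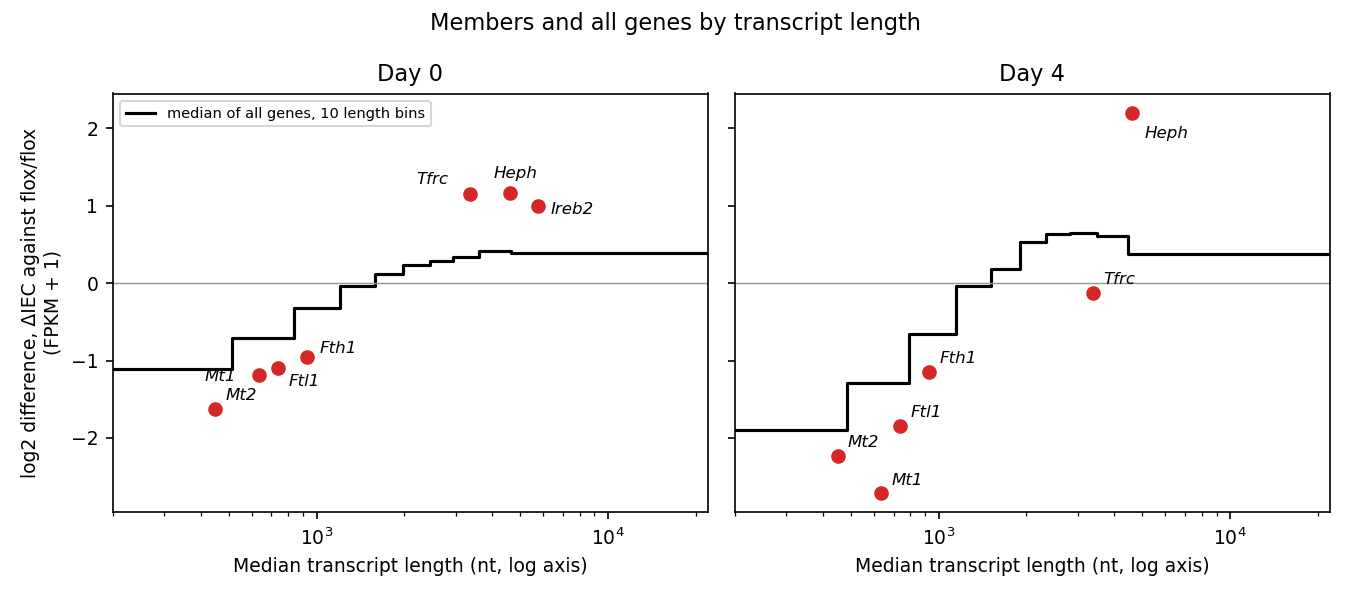
Log2 difference of FPKM + 1 (Tfeb ΔIEC against Tfeb flox/flox) against the median transcript length in nt (log axis) on Days 0 and 4, with red points for the members past the filter and the black line for the median of all genes in 10 length bins. Mt1 and Heph lie farthest from the line on Day 4, at 1.42 below it and 1.83 above it.

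The summed FPKM also differed between the genotypes after DSS. The sum of the controls was 1.79 times that of Tfeb ΔIEC animals for Day 4, 1.78 times for Day 11 and 1.001 times for Day 0. Dividing each group by its sum shifted the median of all genes from 0.06 to 0.75 on Day 4 and from 0.08 to 0.76 on Day 11, and the shares called became 15.2% lower and 42.2% higher on Day 4 and 15% and 42.5% on Day 11. Under that scaling Mt1 and Mt2 were still called lower (-1.88 and -1.42 on Day 4) and Heph higher (2.77). Fth1, then not called on Days 4 and 11, was still under the median of all genes.

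Markers of red blood cells, which carry haem iron, were also lower in Tfeb ΔIEC animals. Their summed FPKM over 6 genes was 116 for controls and 23.3 for Tfeb ΔIEC animals at Day 0, 31.2 and 7.24 at Day 4 and 31.6 and 7.30 at Day 11. Of the 4 globin genes past the filter, 4 were called lower on Day 0 and 3 on Days 4 and 11, with Hba-a1 at 12.5 and 0.592 FPKM on Day 4. Of all genes tested, 16.1%, 26.1% and 25.7% were called lower on Days 0, 4 and 11. The globin genes are short, with medians of 554 to 703 nt, and in the length bin that holds them the share called lower was 38% for Day 0 and 61% for Day 4. The part of red blood cells in the iron gene values was not tested. Of the 8 epithelial markers, 3 were called higher and 0 lower on Day 4. Their log2 differences ran from -0.87 for Lgals4 over -0.33 for Krt8 and -0.01 for Krt19 to 3.19 for Krt20, a keratin of mature cells. Krt20 was at 101 and 931 FPKM on Day 4 but at 168 and 101 on Day 0 (-0.73), controls first. Of the 4 markers of colonic epithelium, which include Muc2, the secreted mucin of goblet cells, 1 was called lower and 1 higher on Day 0, and 0 lower and 3 higher on Day 4, when 25.6% of all genes were called higher. Slc26a3, a chloride exchanger, was at 33.3 and 271 FPKM on Day 4, and Aqp8, a water channel, was at 198 and 30.1 FPKM on Day 0 (-2.67) and at 25.3 and 69.3 on Day 4 (1.42). Muc2 was called higher on both days (1.41 and 1.55). Of the 6 markers of small-intestinal enterocytes, Lct and Apoa4 were at 0 in all values, and of the 3 past the filter on Day 4, 1 was called lower. This was Fabp6, at 24.0 and 2.65 FPKM, whereas Fabp2, the most abundant, was at 852 and 799 FPKM (-0.09). On Day 0 both Fabp6 and Fabp2 passed the filter and were called lower, with Fabp2 at 1882 and 891 FPKM (-1.08). The part of the mix of epithelial cells in the metallothionein and ferritin values was not tested either.

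Other genes of iron, haem, zinc and copper handling and of the Nrf2 pathway were read from 6 lists of 71 genes, of which 70 were analysed. On Day 0, 52 passed the filter, of which 2 (3.85%) were called lower and 8 (15.4%) higher, beside 16.1% and 13.5% of all genes tested. On Day 4, 50 passed, of which 10 (20%) were called lower and 15 (30%) higher, with a median log2 difference of 0.28, and on Day 11 the counts were 10 and 16. Of all genes tested on Day 4, 26.1% were lower and 25.6% higher. The 10 lower genes of Day 4 had a median transcript of 1115 nt and the 15 higher ones of 2902 nt.

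Among 15 genes of iron uptake and export, 9 passed on Day 4, with 1 called lower and 3 higher (median 0.82). Slc40a1, ferroportin, through which iron leaves the cell and which works beside the product of Heph, was at 8.79 FPKM in controls and 13.3 in Tfeb ΔIEC animals for Day 0, at 1.34 and 12.4 for Day 4 and at 1.18 and 11.8 for Day 11. Both exporter genes were thus higher in Tfeb ΔIEC animals on Day 4, the log2 differences being 2.52 for Slc40a1 and 2.20 for Heph. In controls Slc40a1 was lower on Days 4 and 11 than on Day 0, while in Tfeb ΔIEC animals the 3 values lay close together. Steap3, a ferric reductase of endosomes, was at 0.440 and 2.43 FPKM on Day 4 (log2 difference 1.25) but at 5.11 and 3.60 on Day 0 (-0.41), and Steap1, of the same family, at 0 and 1.41 on Day 4. Slc39a14, a carrier of zinc and of iron not bound to transferrin, was at 0.895 and 4.85 FPKM on Day 0 (1.63) and at 2.51 and 0.634 on Day 4 (-1.10).

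Of 8 genes of ferritin loading, ferritin turnover and iron sensing, 7 passed on Day 4, with 1 called lower and 3 higher (median 0.72). Fbxl5, which marks the product of Ireb2 for breakdown when iron is plentiful, was at 5.59 and 13.7 FPKM on Day 0 and at 1.23 and 11.2 on Day 4 (log2 difference 2.46). Aco1, the other iron regulatory protein, was at 6.01 and 11.5 FPKM on Day 0 and at 2.75 and 9.59 on Day 4 (1.50). Both were thus higher in Tfeb ΔIEC animals on Day 4, where the ferritin genes were lower. Hif1a, a hypoxia factor, was at 4.90 and 19.7 FPKM on Day 4 (1.81). Pcbp2, a chaperone that delivers iron to ferritin, was at 9.33 and 4.04 FPKM on Day 4 (-1.03).

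Haem handling had 9 genes analysed and 7 past the filter on Day 4, with 1 called lower and 2 higher (median 0.29). Blvrb, biliverdin reductase B, was at 36.9 and 17.8 FPKM on Day 0 (log2 difference -1.01) and at 56.8 and 11.4 on Day 4 (-2.22). Alas1 and Fech, the first and last enzymes of haem synthesis, had log2 differences of 1.66 and 1.34 on Day 4, at 12.5 and 41.4 FPKM and at 2.82 and 8.70 FPKM. Bach1, a repressor of Hmox1 that haem inactivates, was at 1.13 and 2.45 FPKM (0.69). Of 8 genes of mitochondrial iron, 7 passed on Day 4 and 4 were called lower and 1 higher (median -1.37), beside 26.1% and 25.6% of all genes tested. On Day 0, 0 were called, beside 16.1% and 13.5% of all genes. Among the lower genes, 3 of the building of iron-sulfur clusters are named: Iscu, the scaffold, was at 18.4 and 2.81 FPKM (-2.35), Glrx5 at 13.9 and 3.53 (-1.72) and Hscb at 13.6 and 4.39 (-1.44).

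For the metallothioneins, the list of zinc and copper handling had 19 genes, of which 11 passed on Day 4, with 2 called lower and 4 higher (median 0.11). Atox1, a copper chaperone, was at 89.2 and 47.2 FPKM on Day 0 (log2 difference -0.90), at 295 and 31.4 on Day 4 (-3.19) and at 302 and 34.6 on Day 11 (-3.09). Like Mt1, it was highest in the controls of Days 4 and 11 and is short, at 541 nt. The zinc carriers Slc39a4 and Slc39a7, which move zinc into the cytoplasm, were at 51.3 and 152 FPKM (1.55) and at 7.46 and 24.95 FPKM (1.62) on Day 4, and Slc31a1, the copper importer, at 2.70 and 9.43 (1.50). On Day 0 Slc39a4 was at 60.8 and 46.6 FPKM (-0.38). Mtf1, which encodes the factor that switches on Mt1 and Mt2, was at 0.167 and 0.102 FPKM on Day 0, under the filter, at 1.97 and 0.498 on Day 4 (-0.99, not called) and at 1.96 and 0.465 on Day 11 (-1.01, called lower). Of 11 genes of the Nrf2 pathway, which induces ferritin and Hmox1 under oxidative stress, 9 passed on Day 4, with 1 called lower and 2 higher (median -0.12). Nfe2l2, which encodes Nrf2, was at 12.4 and 50.2 FPKM (1.93), its partner Mafk at 0.214 and 3.08 (1.75), the target Gclm at 12.6 and 5.18 (-1.14) and Gsr, glutathione reductase, at 3.20 and 6.36 (0.81). On Day 0 Gsr was at 6.31 and 3.23 FPKM (-0.79).

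**Figure D5:**
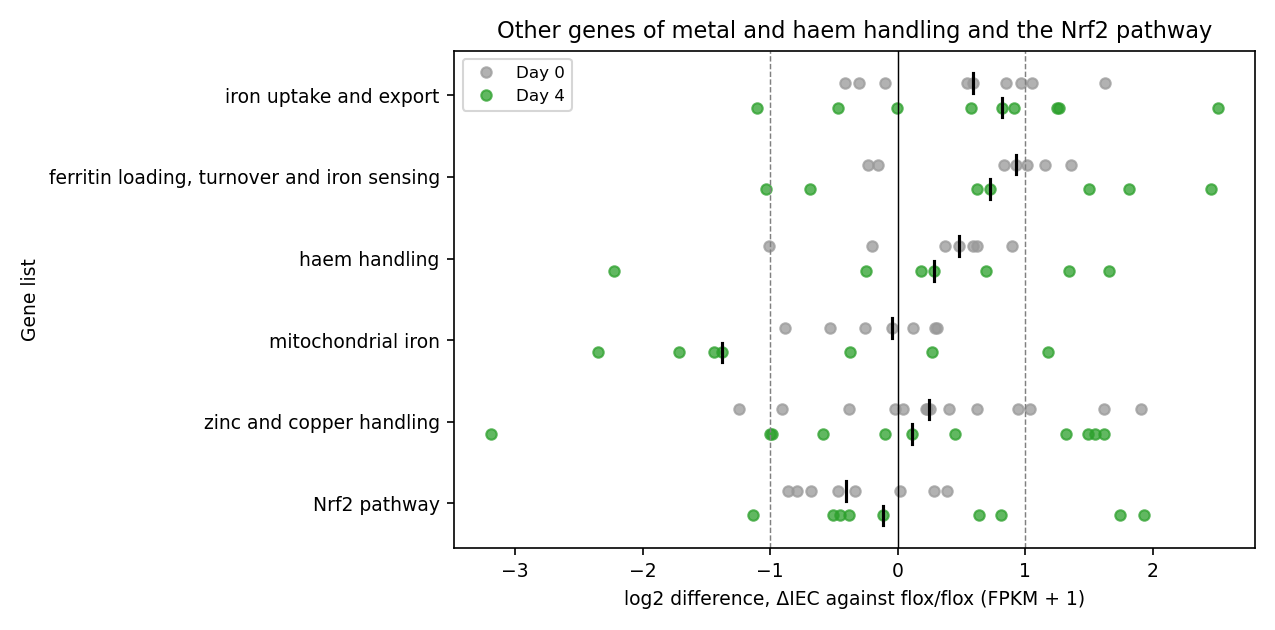
Log2 difference of FPKM + 1 (Tfeb ΔIEC against Tfeb flox/flox) on Day 0 (grey) and Day 4 (green) for the genes of 6 lists past the filter, 1 point per gene, with black bars for list medians and dashed lines at 2-fold. The mitochondrial iron genes have the lowest median on Day 4, at -1.37, and the iron uptake and export genes the highest, at 0.82.

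The genes whose 6 values were most like those of 4 members were found by Euclidean distance over log2(FPKM + 1), each gene centred on its mean, among 8616 genes with a mean of at least 1 FPKM. For Fth1 they were its copy Gm6977 (distance 0.15), Nfkbia (0.16), an inhibitor of NF-κB, and Gclm (0.17), of glutathione synthesis. The median transcripts of Gm6977, Nfkbia and Gclm were 512, 1578 and 3295.5 nt, beside 929 nt for Fth1. For Mt1 they were Sec61b (0.40), Adamtsl5 (0.40) and Pglyrp1 (0.41), with median transcripts of 564, 1473 and 694 nt beside 633 nt for Mt1. Pglyrp1, a secreted protein that binds bacterial cell walls, was at 432 and 219 FPKM on Day 0 and at 2606 and 434 on Day 4. For Tfrc they were Flad1 (0.26), Nme7 (0.27) and Gm26623 (0.27), each highest in the Tfeb ΔIEC animals of Day 0. For Hmox1, which was itself under the mean of 1 FPKM and nearly level, they were Pdss2 (0.09), Glns-ps1 (0.11) and Gtf2h3 (0.12). The distance is over 6 values that share libraries within each group, and describes likeness only.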

How the data were processed

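Colonic epithelial RNA-seq of 6 groups of 2 animals was used, grouped by the sample labels. Full-length cDNA had been made by the authors with a variation of SmartSeq2 and sequenced from both ends on a MiSeq machine. Reads had been mapped to mm10 with TopHat2 (2.0.14) and Bowtie, and Cuffdiff (2.1.1) had been run on the genotypes of a day. The versions are from the submitters' processing notes. The 3 deposited tables, 1 per day, hold 1 FPKM value per gene and genotype, made by the authors from both animals and scaled within the day. They also hold the fold change, test statistic, p-value, q-value and significance of the authors' own comparisons, which were not used. Depth is unknown, and no column of a single animal was used.

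Log2 differences were computed on FPKM + 1 over genes with at least 1 FPKM in either genotype, and 2-fold was the threshold. The members and lists were chosen with earlier results of these data known. Besides the 9 members, Tfeb, copies, 3 nearest genes of 4 members and up to 4 genes per list with the largest Day 4 difference were named, except that results of 2 genes are not reported here; Car1, Cd68, Adgre1, Lct, Apoa4, Krt8, Krt19, Krt20, Lgals4, Aqp8, Muc2, Slc26a3, Hba-a1, Fabp2 and Fabp6 are named as markers and Mtf1 as the factor of the metallothioneins, some outside that rule and chosen after their values were seen. Alternatives were pseudocounts of 0.1 and 5, scaling by column sum, centring on the median, no filter or 10 FPKM, and thresholds of 1.5-fold and 4-fold. Transcript lengths are medians over GENCODE M21 basic transcripts (47218 genes matched). Copies were searched with blastn 2.17.0. Coordinates count from 1. Python 3.11.15, numpy 2.4.6, pandas 2.3.3 and matplotlib 3.10.9 were used, and the calling was tested on simulated data.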

Additional observations from a re-analysis of the deposited data

Results flagged for a closer look

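The genotype difference of Tfrc was higher in Tfeb ΔIEC animals on Day 0 and slightly lower on the later days, with log2 differences of 1.15 on Day 0, -0.12 on Day 4 and -0.040 on Day 11. It stands here because the pooled values of the days point in opposite directions. The difference between the days was not tested, since each day has 1 value per genotype, and with each group divided by its summed FPKM the later values were 0.56 and 0.62.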

How the results depend on the processing

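The 27 log2 differences of the 9 genes over 3 days changed their call in 1 case with a pseudocount of 0.1 (Ireb2 on Day 0, 2.49), in 2 with a pseudocount of 5 (Tfrc and Heph on Day 0, 0.80 and 0.64), in 4 with each group divided by its sum (Ireb2 on Day 0, 1.01; Fth1 on Days 4 and 11, -0.31 and -0.23; Ftl1 on Day 11, -0.95) and in 1 with centring on the median (Fth1 on Day 0, -1.02). In 0 cases did a called difference change sign. The number called lower on Day 11 was 2 in place of 4 with each group divided by its sum. At a 4-fold threshold 0 members were called lower for Day 0, 2 for Day 4 and 2 for Day 11 (Mt1 and Mt2), and the number called higher on Day 0 was 0. The number called higher on Day 0 was 0 with a pseudocount of 5 (2.51% of all genes tested) and 1 (Tfrc) with a filter of 10 FPKM (9.61%), and with that filter it was 0 on Day 11 (26.6%). At 4-fold, 3.35% of all genes tested were lower on Day 0, 10.3% on Day 4 and 10.2% on Day 11. Scaling by the sum turned the order of the genotypes in the ratio of Day 4 to Day 0 for Fth1 (log2 -0.70 in controls and -0.05 in Tfeb ΔIEC animals), Ftl1 (0.09 and 0.17) and Mt2 (1.33 and 1.53), and kept it for Mt1 (1.63 and 0.93). No paired analysis was possible because each genotype has 1 pooled value per day, and leaving out an animal was not possible for the same reason. The unknown depth limits what can be read from Hmox1, Cybrd1 and Ireb2.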
